A study of Mus musculus with 12 samples.

Results

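The comparison described here set leukaemia cells that had regrown after chemotherapy against leukaemia cells of mice that never received it. It used 9 of the 12 RNA-seq libraries of the study, namely the 5 titled vehicle and the 4 titled relapse. The other 3 libraries, titled iCT, were left out of the fit. All mice carried acute myeloid leukaemia described as MLL-AF9 transgenic, and in all groups the GFP-positive leukaemia cells were sorted from bone marrow before RNA was extracted. Vehicle mice received vehicle alone. Relapse mice received the induction chemotherapy doxorubicin with cytarabine, and their cells were taken 10 days after it ended, against 3 days in the iCT group. Mice are numbered within each group, and each library came from 1 mouse. The labels state neither the age, sex and strain of the mice nor how the transgene was introduced, and whether the mice share a founder leukaemia is not known here.

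MLL-AF9 is a fusion oncoprotein that joins a histone methyltransferase to a subunit of the transcription elongation machinery. It holds myeloid progenitors in an immature state by keeping genes such as Hoxa9 and Meis1 on. Doxorubicin poisons topoisomerase II, and cytarabine is a nucleoside analogue that stalls DNA synthesis. Cells that regrow after both drugs can differ from untreated cells in stem cell features, in maturation or in metabolism, and the comparison bears on which of these differed at the RNA level.

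Expression was analysed as log2(FPKM + 1), where FPKM is the fragment count of a gene scaled by transcript length and by the mapped fragments of the library. The test covered genes that reached 1 FPKM in 3 or more of the 9 libraries, which left 10834 of 24883 entries. Fold changes are given as log2 differences on that scale, relapse minus vehicle, and understate the change of genes with low values. A gene was called where limma gave an adjusted p under 0.05. The deposited intervals imply 1226471 to 6173864 fragments per vehicle library and 2782481 to 7484470 per relapse library, and among genes at 1 FPKM or more the median gene was backed by 43.9 to 284 fragments. The defining markers of the labelled cells were present in every library: Cebpa, Spi1, Mpo, Elane, Kit and Cd34 were all above 20 FPKM. The T cell marker Cd3e and the endothelial marker Cdh5 stayed under 1 FPKM in all 9. Other markers did not: Lck (T cell) reached 1.39 FPKM, Col1a1 (stroma) 7.14 and Prg2 (eosinophil) 19.5, each in a vehicle library. Hba-a1 (erythroid) reached 93.5 FPKM in vehicle and Ctsk (osteoclast) 33.1 in relapse. The first principal component held 25.8% of the variance and placed relapse libraries at -22.0 to -9.04 and vehicle libraries at 0.03 to 36.3, with vehicle mouse 1 farthest out.

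By limma, 612 genes were called (5.65% of those tested), 409 of them higher in relapse (3.78% of the genes tested) and 203 lower (1.87%). An unadjusted limma p under 0.05 was reached by 2727 genes (25.2%), both directions together. These background shares are the ones against which counts within gene groups are read below. Most differences were small: 12 genes were higher and 50 lower by at least 2-fold, and the smallest adjusted p was 0.0196. Every relapse library lay above every vehicle library in 1066 genes (9.84%) and below every one in 441 (4.07%). The groups were separate in this sense in 593 of the 612 called genes. The count depended on which mouse was left out. Without relapse mouse 1 the count was 0, and without relapse mouse 3 it was also 0 (smallest limma adjusted p 0.0589 and 0.0754), although 2323 and 2203 genes then kept an unadjusted p under 0.05. It was 7 without relapse mouse 2, 10 without relapse mouse 4, 391 without vehicle mouse 1, 148 without vehicle mouse 2, 217 without vehicle mouse 3, 590 without vehicle mouse 4 and 309 without vehicle mouse 5. A fit with all 12 libraries also gave 0 calls (smallest adjusted p 0.171), with 1597 genes at an unadjusted p under 0.05. After median-of-ratios scaling the direction of the calls was near even, with 313 higher and 371 lower.

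The genes that rose and the genes that fell differed in their transcripts. Those called higher had a median transcript length of 5122 bases and a median GC content of 53.6%, those called lower had 1907 bases and 46.6%, and all tested genes 2914 bases and 50.1%. In the quintile of shortest transcripts, among genes also in the lowest quintile for GC content, the median change was -0.24, with 1 gene called higher and 19 lower of 223. Among genes in the longest and the most GC-rich quintile it was 0.44, with 51 called higher and 1 lower of 204. Spearman's rho of the change with GC content was 0.358 and with length 0.267, over 10749 genes that are not independent and share the same 9 libraries.

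Each library's own slope on these properties was then measured. The slope on GC content, in log2 units per 10 percentage points, was -0.229, 0.058, -0.157, 0.069 and -0.087 in vehicle mice 1 to 5 and 0.044, 0.069, 0.142 and 0.092 in relapse mice 1 to 4. The 4 relapse libraries all had a slope above 0, but vehicle mice 2 and 4 lay among them. The slope on length, per doubling, was -0.038, -0.070, 0.055, -0.053 and -0.027 in vehicle and 0.048, 0.029, 0.025 and 0.030 in relapse. Here only vehicle mouse 3 exceeded the relapse libraries. Neither slope differed between the groups at the threshold, with exact two-sided permutation p = 0.0794 for GC content and 0.0556 for length over 126 splits, and 0.0794 for both after adjustment over the 2 tests.

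When smooth trends on GC content and length were removed from every library, limma called 11 of 10749 genes (0.102%), 8 higher and 3 lower, and all 11 were among the 612. The sign of the change was kept in 608 of the 610 called genes with a value. The median change was smaller, moving from 0.58 to 0.39 for the genes called higher and from -0.51 to -0.36 for those called lower. Whether the trends belong to the RNA of the cells or to the preparation of the libraries was not tested. The calls described below, other than those of these 11 genes, were not made with the trends removed, and for many of the groups and genes the change with the trends removed is given beside the fitted one.

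**Figure D1:**
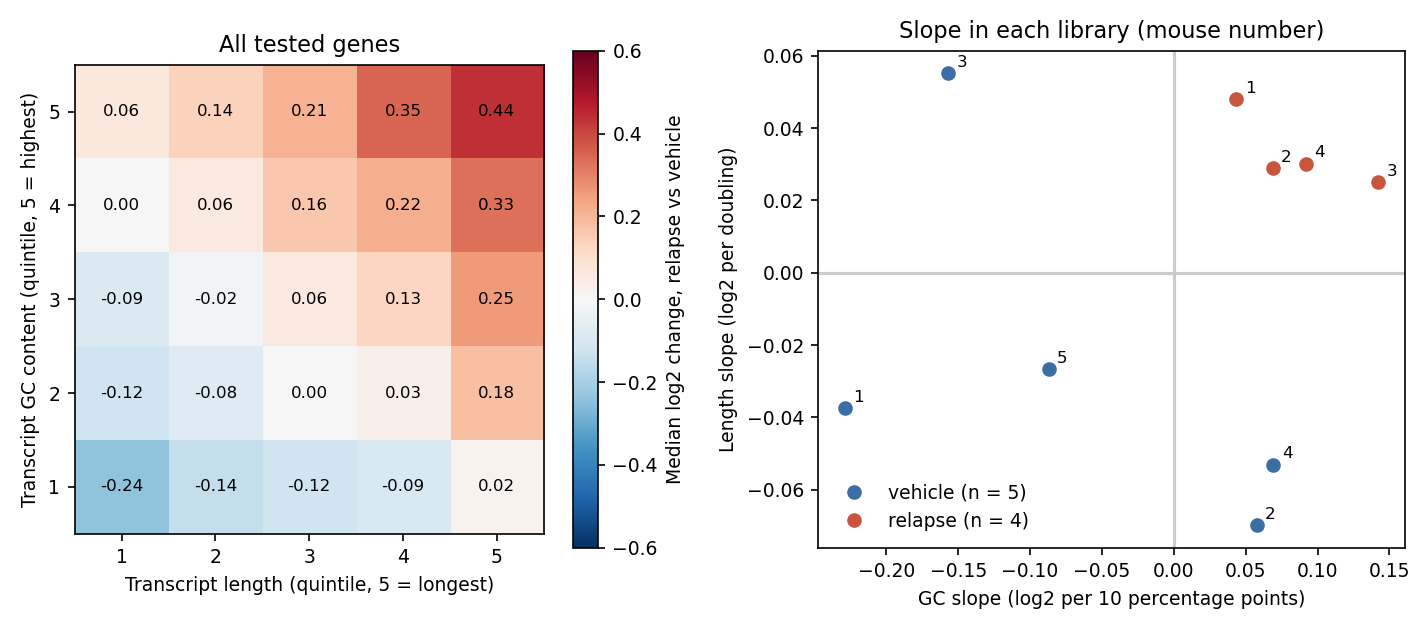
Left, the median log2 change (relapse minus vehicle) of all tested genes in quintiles of transcript length (x) and GC content (y), from -0.24 at the short and GC-poor corner to 0.44 at the long and GC-rich corner. Right, each library's slope on GC content (x, log2 per 10 percentage points) and on length (y, log2 per doubling), numbered by mouse; the 4 relapse libraries have both slopes above 0 and no vehicle library does.

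Several markers of haematopoietic stem and progenitor cells were higher in relapse, with the largest rise in Flt3. Of 18 tested members of that list, 6 were called higher (against 3.78% of all genes tested) and 0 lower, and the median change was 0.27 against 0.06 over all tested genes (0.14 and 0.07 with the trends removed). At an unadjusted limma p under 0.05, 8 members were higher and 4 lower (against 25.2% of all genes tested, both directions together). Whatever its size, the change was positive in 10 members and negative in 8. Fcgr2b (-0.31, limma adjusted p = 0.0531) and Fcgr3 (-0.28, limma adjusted p = 0.0665) had every relapse library below every vehicle library. Ly6a had a change of -0.62 with overlap (limma adjusted p = 0.157). Flt3, a receptor tyrosine kinase of early progenitors that drives their proliferation when bound by its ligand (chromosome 5, 147330742 to 147400489), stood at 1.18, 2.49, 1.69, 2.35 and 1.36 FPKM in vehicle and at 9.06, 6.69, 13.8 and 6.19 in relapse. The lowest relapse value exceeded the highest vehicle value, and the means were 1.81 ± 0.584 (SD, n = 5) and 8.92 ± 3.46 (n = 4). The change in Flt3 was 1.78 (SE 0.23, limma adjusted p = 0.0196), and 1.73 with the trends removed (limma adjusted p = 0.0251). Flt3 passed the threshold in 7 of the 9 fits that left out 1 mouse, the exceptions being those without relapse mouse 1 (limma adjusted p = 0.0589) and without relapse mouse 3 (0.0754).

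Adgrg1, an adhesion G protein-coupled receptor of stem cells also known as Gpr56 (chromosome 8, 94977109 to 95014208), was at 13, 11.9, 13.9, 16.0 and 13.2 FPKM in vehicle and 21.0, 22.3, 29.4 and 24.9 in relapse. The groups were separate, and the change was 0.79 (SE 0.12, limma adjusted p = 0.0234). Cd34, a sialomucin that marks progenitors (chromosome 1, 194938821 to 194961292), was at 75.2, 83.5, 122, 88.1 and 79.4 FPKM in vehicle and 109, 127, 150 and 132 in relapse. Vehicle mouse 3 lay above relapse mouse 1, so the Cd34 groups overlapped, and the change of 0.54 was close to the threshold (limma adjusted p = 0.0492). The transcription factors Erg (change 0.53), Sox4 (0.58) and Gata2 (0.64) were also called, with limma adjusted p = 0.0284, 0.0468 and 0.0486, and in each the groups were separate. Kit, the receptor for stem cell factor, was at 24.3 to 27.5 FPKM in vehicle and 26.9 to 39.4 in relapse and was not called (change 0.27, limma adjusted p = 0.153). With the trends removed, Flt3 was the only called member of the list, and Adgrg1 followed at limma adjusted p = 0.0514.

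**Figure D2:**
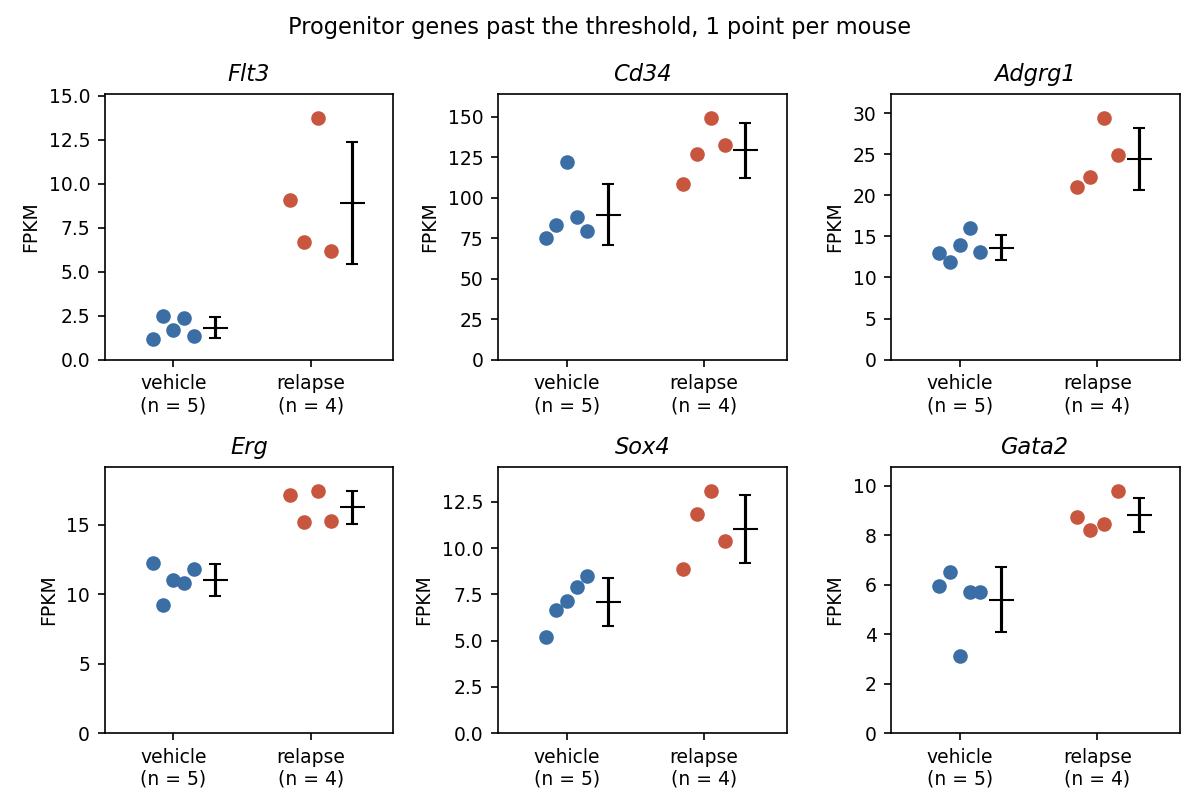
FPKM of the 6 progenitor genes past the threshold, 1 point per mouse, with the mean and SD of each group as a bar beside the points; each y axis starts at 0. Flt3 has no overlap between vehicle (1.18 to 2.49) and relapse (6.19 to 13.8), while the highest vehicle value of Cd34 (122) lies among the relapse values (109 to 150).

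Of 20 tested genes of the programme that MLL-AF9 is known to keep on, 2 were called higher (against 3.78% of all genes tested) and 0 lower, with a median change of 0.26 (0.17 with the trends removed). Myc, the growth-promoting transcription factor, was at 54.9 to 69.2 FPKM in vehicle and 74.9 to 90.5 in relapse, a change of 0.39 (limma adjusted p = 0.034). The kinase Syk was the other call (0.34, limma adjusted p = 0.0452, but 0.14 with the trends removed). The homeobox genes Hoxa9 (41.7 to 59.7 FPKM in vehicle, 49.8 to 66.5 in relapse) and Meis1 (11.3 to 16.7 and 12 to 23.8) were not called, with limma adjusted p = 0.558 and 0.277, and neither was Myb (change 0.15, limma adjusted p = 0.229). Among receptors and signalling genes of myeloid cytokines, Flt3 and Csf2rb, the shared chain of the interleukin-3 and GM-CSF receptors (change 0.33, limma adjusted p = 0.0484, but 0.15 with the trends removed), were the 2 calls of 29 (against 5.65% of all genes tested).

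The 11 genes called both as fitted and with the trends removed were named after their values were seen. Besides Flt3, Chd4, Bcor and Myh9, which are described with their gene groups, they include Cryl1, which encodes a crystallin-related dehydrogenase (chromosome 14, 57275034 to 57398483). Cryl1 was at 18.5, 17.9, 16.9, 21.5 and 18.3 FPKM in vehicle and 28.2, 29.4, 31.2 and 30.1 in relapse. The spread within each group was small beside the gap between them, and the change was 0.65 as fitted (limma adjusted p = 0.0196) and 0.69 with the trends removed (limma adjusted p = 0.0251). Ccl9, a chemokine of myeloid cells (chromosome 11, 83572917 to 83578636), was at 21.6, 15.2, 20.2, 20.9 and 16.4 FPKM in vehicle and 29.8, 26.4, 24.9 and 27.6 in relapse (change 0.51 as fitted and 0.69 with the trends removed). Eif3a, a subunit of translation initiation factor 3, was at 56.0 to 61.8 FPKM in vehicle and 77.7 to 83.1 in relapse.

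Among the 3 genes called lower in both fits, Smpdl3a encodes a secreted phosphodiesterase related to acid sphingomyelinase (chromosome 10, 57794544 to 57811830). Smpdl3a was at 203, 168, 176, 147 and 178 FPKM in vehicle and 92.4, 103, 90.6 and 118 in relapse, so that every relapse library was lower, with a change of -0.79 (-0.64 with the trends removed, limma adjusted p = 0.0397). Cldn15, a claudin of tight junctions (chromosome 5, 136967869 to 136975845), was at 75.1, 86.5, 78.4, 82.7 and 81.6 FPKM in vehicle and 53.7, 57.5, 54.8 and 64.2 in relapse (change -0.49, or -0.50 with the trends removed). The remaining members were gene models without an annotated function. Gm21188 was at 13.8 to 18.7 FPKM in vehicle and 6.05 to 8.56 in relapse, and Gm8013 was listed at 0 in all 5 vehicle libraries and at 1.21 to 2.75 FPKM in relapse. Gm8013 entered the test only through the relapse libraries, so its call is no support. Models of this kind can have near-identical copies, and their values then depend on how Cufflinks divided shared reads.

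**Figure D3:**
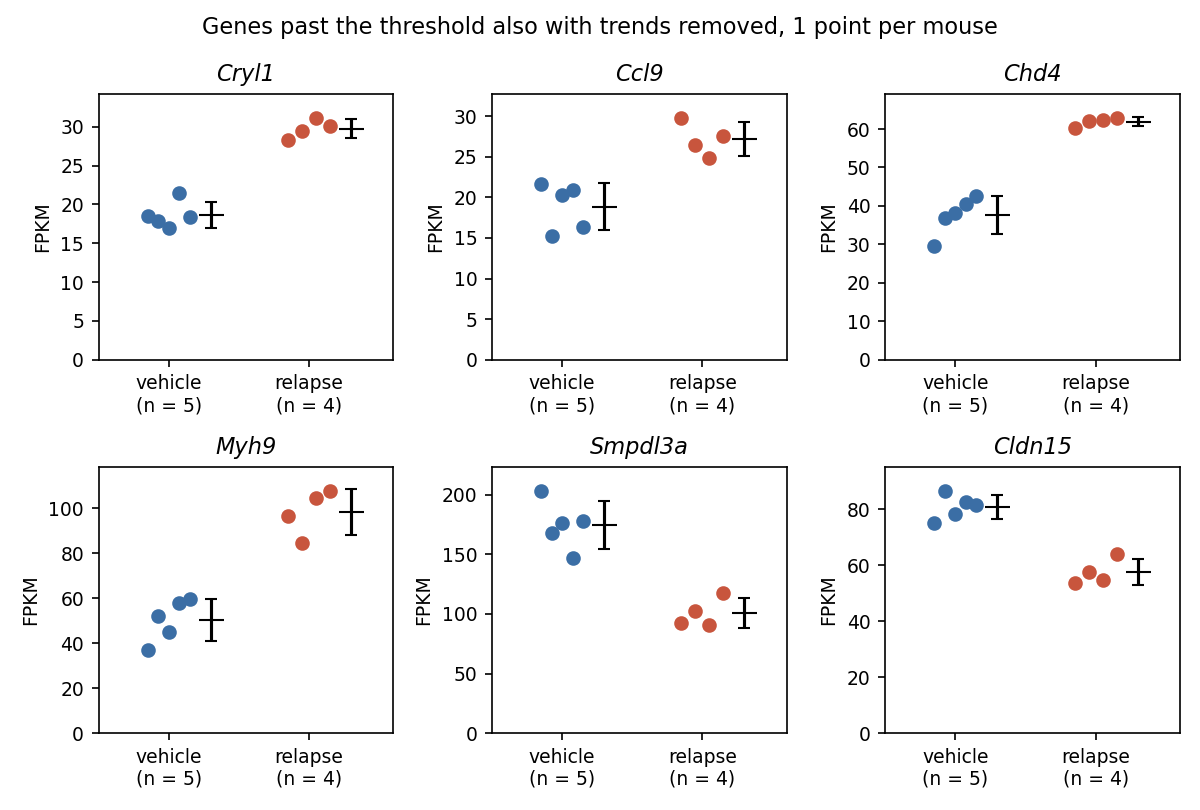
FPKM of 6 of the 11 genes past the threshold both as fitted and with GC and length trends removed, 1 point per mouse, with the mean and SD of each group as a bar beside the points; each y axis starts at 0. The groups do not overlap in any of the 6; Cryl1, for example, lies at 16.9 to 21.5 in vehicle and 28.2 to 31.2 in relapse.

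The largest falls had a sequence feature in common. The 15 largest falls that met the naming rule (called, groups separate, a group mean of at least 5 FPKM) included genes of different kinds, such as the retinoic acid receptor Rara, the junction protein F11r, the G protein regulator Rgs20 and the small heat shock protein Hspb7. Of the 14 with a GENCODE transcript, 12 (85.7%) held an unbroken run of at least 50 bases of the dinucleotide CA or TG, which occurred in 255 of 10749 tested genes (2.37%). For 5 of these genes the start of the run is given here from GENCODE transcripts, 5′ to 3′ on the gene's strand. Lower case marks the 10 bases before the run and capitals its first 20 bases. All 5 runs lay in a 3′ untranslated region, and coordinates are GRCm38.
Tmem220 (TG run of 74 bases, chr11:67035054-67035083, plus strand): gcatgggatcGTGTGTGTGTGTGTGTGTGT
Rgs20 (TG run of 52 bases, chr1:4909809-4909838, minus strand): atgcatccaaGTGTGTGTGTGTGTGTGTGT
F11r (TG run of 63 bases, chr1:171463810-171463839, plus strand): tggtggcctcGTGTGTGTGTGTGTGTGTGT
Hspb7 (CA run of 70 bases, chr4:141424708-141424737, plus strand): caggacttgtACACACACACACACACACAC
Rara (CA run of 56 bases, chr11:98974640-98974669, plus strand): gggcccttcaACACACACACACACACACAC

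The runs were looked for after the values had been seen, so their counts describe these libraries and carry no test. A run of at least 50 bases was present in 44 of 202 genes called lower (21.8%) and in 36 of 49 called lower by at least 2-fold (73.5%), against 6 of 408 called higher (1.47%). The relation was a step rather than a slope. Genes whose longest run was 40 to 49 bases had a median change of 0.08, and 10 of 364 (2.75%) had every relapse library below every vehicle library. At 50 to 59 bases the median was -0.31 and the share 29.7% (63 of 212), and at 60 bases or more they were -0.19 and 30.2% (13 of 43). Removal of the GC and length trends left these medians at 0.04, -0.32 and -0.21. CA runs (115 genes, median -0.36) and TG runs (141 genes, median -0.26) on the sense strand both showed it. Runs of GA or TC of at least 50 bases did not, with a median of 0.10 and 1 of 101 genes called lower, and TA runs of that length were present in only 6 genes.

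The 15 largest falls, with or without such a run, also shared much of their pattern among mice of the same group. Tmem220, which encodes a transmembrane protein, was at 374, 233, 180, 141 and 131 FPKM in vehicle and 86.2, 42.9, 60.1 and 85.9 in relapse. Rara was at 58.4, 39.9, 31.0, 25.6 and 22.2 FPKM in vehicle and 13.5, 9.20, 10.6 and 16.4 in relapse. In both, vehicle mouse 1 was the highest library and relapse mouse 2 the lowest, and the groups were separate. The same held for Serpina1a and Slmo1, also among these falls, whose longest CA or TG runs were only 6 and 8 bases. The change was -1.55 (SE 0.30) in Tmem220 and -1.39 (SE 0.26) in Rara, with limma adjusted p = 0.0292 and 0.0258. With the trends removed the changes were about as large, -1.39 and -1.56, with limma adjusted p = 0.0585 and 0.0514. Over the 9 libraries of both groups the 15 largest falls had a median pairwise Pearson's r of 0.969 (0.838 to 0.998 over 105 pairs), a description over genes that were chosen for the same difference. Over all 255 genes with such runs, the median log2 level against the vehicle mean was 0.443, 0.010, -0.085, -0.205 and -0.114 in vehicle mice 1 to 5. In relapse mice 1 to 4 that median was -0.168, -0.388, -0.394 and -0.211, so the groups overlapped. In the iCT libraries, which the fit did not use, Rara was at 107, 26.3 and 69.7 FPKM and Tmem220 at 667, 166 and 432, so those libraries also differed widely among themselves.

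Several genes of haematopoietic interest belong to this set, and the runs are given beside their values for that reason. Havcr2, the immune receptor TIM-3 (run of 56 bases), had a change of -1.32 (limma adjusted p = 0.0334). The proapoptotic gene Hrk (54 bases) had a change of -0.97 (limma adjusted p = 0.0394). Hrk would not have entered the test without the vehicle libraries, in which it is high, so its call adds no support. The antiapoptotic gene Bcl2 (55 bases), at 4.09 to 8.41 FPKM in vehicle and 2.52 to 3.65 in relapse, was just outside the threshold (change -0.65, limma adjusted p = 0.0577). Not every carrier was lower: Trrap, a scaffold of histone acetyltransferase complexes with a run of 53 bases, was called higher (0.94, limma adjusted p = 0.0292). With the 255 genes left out, limma called 541 of 10579 genes, 390 higher and 151 lower. What the runs have to do with the falls, in the cells or in library preparation and read mapping, was not tested.

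**Figure D4:**
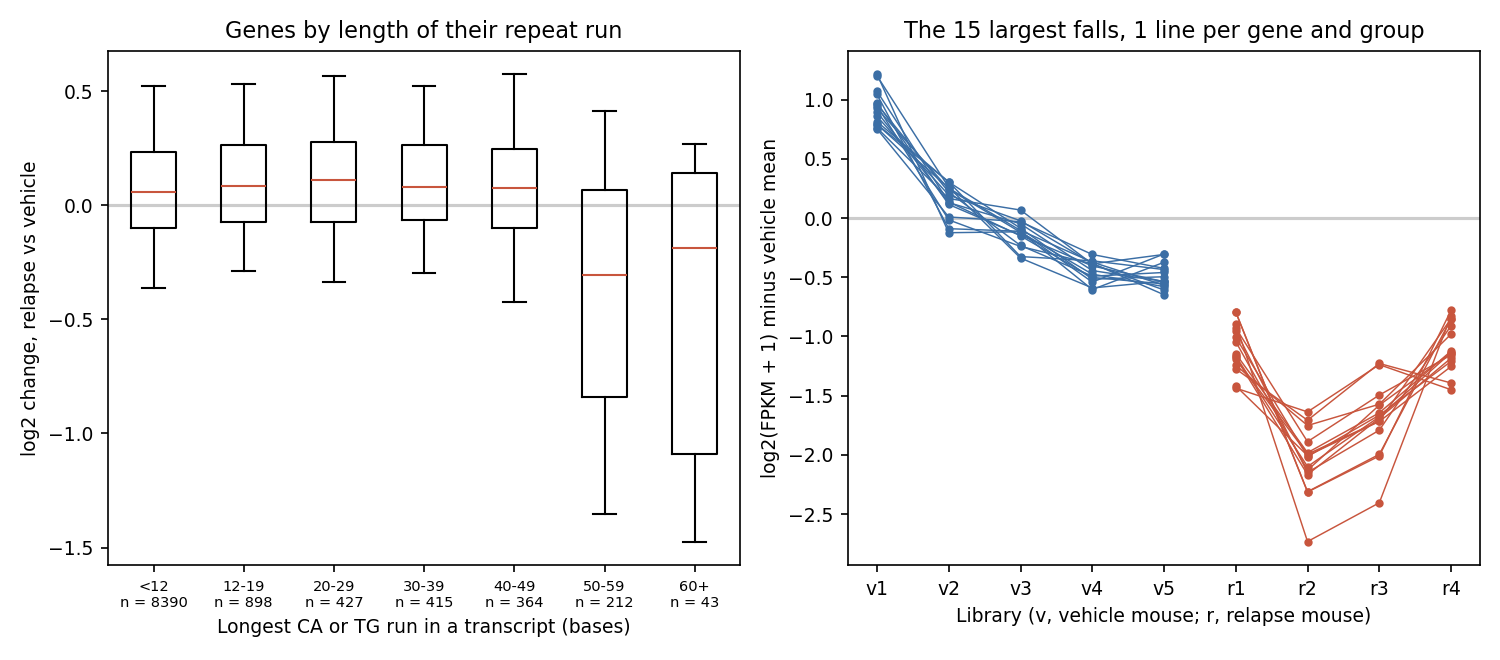
Left, log2 change (relapse minus vehicle) of tested genes by the longest CA or TG run in a transcript, with the median, the quartiles as a box and the 5th to 95th percentiles as whiskers; the median is 0.08 at 40 to 49 bases and -0.31 at 50 to 59. Right, log2(FPKM + 1) minus the vehicle mean of the 15 largest falls in each library, where a line joins the values of 1 gene and the order of mice has no meaning; the genes move together, highest in vehicle mouse 1.

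Many chromatin regulators and large cytoskeletal genes rose. Of 44 tested chromatin regulators 20 were called higher (against 3.78% of all genes tested) and 0 lower. Every relapse library lay above every vehicle library in 26 (against 9.84% of all genes tested). The median change was 0.50, and 0.24 with the trends removed, when 2 of the 20 were still called. These genes are long, with a median transcript of 7851 bases. Chd4, the ATPase of the NuRD remodelling and deacetylase complex (chromosome 6, 125096163 to 125130501), was at 29.7, 37.0, 38.1, 40.5 and 42.5 FPKM in vehicle and 60.2, 62.1, 62.3 and 62.9 in relapse. The relapse libraries were closely grouped well above all vehicle libraries, with a change of 0.72 (SE 0.10, limma adjusted p = 0.0206) and 0.49 with the trends removed (limma adjusted p = 0.0397). Bcor, a corepressor of a Polycomb complex, was at 7.25 to 10.2 FPKM in vehicle and 16.1 to 19.1 in relapse (change 0.92, or 0.68 with the trends removed). The acetyltransferase Ep300 (0.77), the H3K36 methyltransferase Nsd1 (0.67), the remodelling subunit Arid1a (0.87) and the DNA methyltransferase Dnmt3a (0.58) were called as fitted. Their limma adjusted p with the trends removed was 0.0519, 0.0628, 0.0626 and 0.161.

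Of 33 tested dyneins, kinesins, myosins and other large cytoskeletal genes, 12 were called higher (against 3.78% of all genes tested) and 0 lower, with a median change of 0.38 (0.28 with the trends removed). Myh9, the heavy chain of non-muscle myosin IIA (chromosome 15, 77760585 to 77842175), was at 37.1, 52.1, 44.8, 58.1 and 59.5 FPKM in vehicle and 96.7, 84.8, 105 and 108 in relapse. No vehicle library came near the relapse values, and the change was 0.97 (SE 0.14, limma adjusted p = 0.0206), or 0.64 with the trends removed. Tln1, which links integrins to actin, was also called (0.91, limma adjusted p = 0.0245). The receptors Notch1 (0.90) and Notch2 (0.93), which steer cell fate, were called with limma adjusted p = 0.0299 and 0.0254 and were not with the trends removed (0.101 and 0.0645). Grap, an adaptor of RAS signalling, differed from these in having a short transcript of 1662 bases. Grap was at 2.09 to 4.07 FPKM in vehicle and 4.81 to 8.68 in relapse, a change of 0.98 that stayed at 0.95 with the trends removed (limma adjusted p = 0.0258 and 0.0514).

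Some interferon-stimulated genes were lower. Of 41 tested, 0 were called higher and 4 lower (against 1.87% of all genes tested), and the median change was -0.26, or -0.23 with the trends removed, when limma called 0. The change was negative in 33 members and positive in 8, the highest at 1.03. At an unadjusted limma p under 0.05, 10 were lower and 1 higher as fitted, and 9 and 3 with the trends removed. Over all tested genes 25.2% reached that level as fitted, and 2091 of 10749 with the trends removed. The fitted total lies near that share, which was not split by direction. Rtp4, a chaperone of receptors induced by interferon (chromosome 16, 23609919 to 23614222), was at 4.60, 6.53, 9.06, 8.17 and 6.59 FPKM in vehicle and 3.88, 2.30, 3.61 and 2.43 in relapse. Ifit3, an antiviral RNA-binding protein (chromosome 19, 34583529 to 34588982), was at 1.84, 3.31, 4.15, 3.58 and 2.0 FPKM in vehicle and 0.585, 1.25, 0.994 and 0.972 in relapse. The groups were separate in both, with changes of -0.97 (SE 0.19, limma adjusted p = 0.0292) and -1.0 (SE 0.20, limma adjusted p = 0.0299). Ifit3b, a near copy of Ifit3 with which it may share reads, changed by -0.95 (limma adjusted p = 0.0358). Neither Ifit3 nor Ifit3b would have entered the test without the vehicle libraries, in which they are high, so their calls add no support. Ifi27l2a, also induced by interferon, was at 30.4 to 69.7 FPKM in vehicle and 7.58 to 34.9 in relapse, with overlap (change -1.66, limma adjusted p = 0.0368). In another list, that of myeloid transcription factors, Irf2, which represses interferon responses, was called higher. Irf2 was at 8.55 to 10.8 FPKM in vehicle and 12.6 to 13.9 in relapse (0.47, limma adjusted p = 0.0299). A link of Irf2 to the lower genes was not tested. Of the 23 tested genes of MHC class I presentation, 0 were called in either direction by limma (1 higher and 2 lower at an unadjusted p under 0.05, against 25.2% of all genes tested), with a median change of -0.23 (-0.18 with the trends removed).

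Of 22 monocyte genes 0 were called higher and 2 lower (against 1.87% of all genes tested), among them the lectin Lgals3, and the median change was -0.26 (-0.15 with the trends removed). The summed level of the 26 listed genes was 4175 to 4798 FPKM in vehicle and 2314 to 4069 in relapse, without overlap. Ly6c2 alone, which was not called, made up 2065 to 2283 FPKM of that sum in vehicle and 844 to 1922 in relapse. The sum without Ly6c2 was not taken. Lgals3 was at 60.1, 87.4, 47.2, 53.8 and 56.1 FPKM in vehicle and 27.4, 41.0, 38.0 and 41.2 in relapse (change -0.69, limma adjusted p = 0.045). Ly6c2, the surface marker of inflammatory monocytes, varied little in vehicle (2190, 2225, 2191, 2283 and 2065 FPKM) and widely in relapse (844, 1657, 915 and 1922). All 4 relapse values were lower, at a change of -0.81 that did not pass (limma adjusted p = 0.0533), and Ly6c2 carries a CA or TG run of 55 bases. Irf8, a factor of monocyte fate, ranged over 27.8 to 60.2 FPKM in vehicle and 26.6 to 71.4 in relapse and was not called (limma adjusted p = 0.64).

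Of 21 genes of primary granules and granulocyte-monocyte progenitors, 2 were called lower (again against 1.87%) and 0 higher, with a median change of -0.19 (-0.11 with the trends removed). Ms4a3, a membrane protein of these progenitors, was at 150, 89.7, 92.3, 103 and 117 FPKM in vehicle and 73.0, 79.5, 69.0 and 62.8 in relapse (change -0.61, limma adjusted p = 0.038). The granule proteoglycan Srgn was the other call (-0.36, limma adjusted p = 0.0498, but -0.11 with the trends removed). The granule enzymes themselves were not called: Mpo was at 1807 and 1973 FPKM in relapse mice 3 and 1 but 3744 and 3764 in mice 4 and 2, and Elane had a change of -0.34 (limma adjusted p = 0.0817). Among 29 genes of mature neutrophils and their secondary granules 0 were called by limma (3 higher and 1 lower at an unadjusted p under 0.05, against 25.2% of all genes tested), at a median change of 0.27 (0.40 with the trends removed). The surface lectin Clec12a of myeloid cells fell from 299 ± 53.8 to 205 ± 25.1 FPKM (-0.53, limma adjusted p = 0.0388, but -0.29 with the trends removed), and the protease Ctsh fell from 56.8 ± 11.5 to 30.9 ± 9.70 FPKM (-0.89, limma adjusted p = 0.0388).

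Among markers of other marrow cells, those of tissue macrophages were lower in their summed level. Of 13 tested macrophage markers 2 were called lower (against 1.87% of all genes tested), among them C1qa, and the change was negative in 12 and positive in 1. The summed level of the 28 listed genes was 255 to 300 FPKM in vehicle and 173 to 238 in relapse, with no overlap. Of the 28, 10 stayed under 1 FPKM in all 9 libraries, among them the mannose receptor Mrc1, while Adgre1, the F4/80 antigen, was at 72.8 to 87.4 FPKM in vehicle and 61.2 to 71.4 in relapse. Vcam1 was at 42.2 to 94.0 FPKM in vehicle and 34.3 to 42.8 in relapse, with overlap. Adgre1 and Vcam1 made up a large part of the sum and were not called (limma adjusted p = 0.0770 and 0.0571). The sum without them was not taken. C1qa, a complement subunit of tissue macrophages, was at 1.91, 6.78, 5.81, 4.80 and 5.06 FPKM in vehicle and 1.42, 1.19, 1.69 and 1.89 in relapse (change -1.14, limma adjusted p = 0.0354). The part that macrophage RNA plays in the interferon and monocyte differences was not tested, and in bulk libraries fewer cells of a type and less RNA per cell cannot be told apart. For erythroid genes (25.1 to 514 FPKM summed in vehicle, 77.5 to 223 in relapse), osteoclast genes (95.1 to 165 and 142 to 265), T and natural killer cell genes (27.3 to 44.3 and 20.2 to 42.8) and B cell genes (126 to 163 and 95.5 to 144) the summed levels overlapped. Among these lists, the call was Nfatc1 of the osteoclast list (0.65, limma adjusted p = 0.0245), a transcription factor also expressed in other blood cells.

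Of 35 tested p53 targets 1 was called higher (against 3.78% of all genes tested) and 0 lower, and the median change was 0.06, the same as over all genes. With the trends removed the median was 0.03. That gene was Phlda3, an inhibitor of AKT (chromosome 1, 135766085 to 135769134), at 0.111, 0.295, 0.577, 0.642 and 0.310 FPKM in vehicle and 6.93, 1.49, 1.96 and 1.88 in relapse. All 4 relapse values were above every vehicle value, relapse mouse 1 by far the most (change 1.39, SE 0.31, limma adjusted p = 0.0354). Phlda3 was under 1 FPKM in every vehicle library and entered the test only through the relapse libraries, in which it is high, so its call adds no support. In iCT, Phlda3 stood at 39.9, 24.0 and 34.0 FPKM. Cdkn1a, the cell cycle inhibitor p21, was at 12.1 to 21.0 FPKM in vehicle and 14.1 to 22.9 in relapse and was not called (limma adjusted p = 0.379), nor was the p53 ligase Mdm2 (-0.36, limma adjusted p = 0.158), which carries a run of 52 bases. The DNA damage genes called were Mdc1 and Parp1, both higher, of 46 tested (against 3.78% of all genes tested).

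A few cell cycle genes were called, most of them higher. Of 44 genes of G2 and mitosis 3 were called higher (against 3.78% of all genes tested) and 0 lower, with a median change of 0.15 (0.21 with the trends removed). The mitotic kinesin Kif20a was at 10.6, 12.8, 12.5, 13.6 and 15.7 FPKM in vehicle and 21.0, 20.1, 21.7 and 18.9 in relapse, with no overlap (0.62, limma adjusted p = 0.0245). The condensin subunit Ncapd2 (0.52) and the chromokinesin Kif4 (0.45) were the others, with limma adjusted p = 0.0234 and 0.0391. Of 40 replication genes the helicase subunit Mcm2 (0.33) and the polymerase Pole (0.58) were called higher (again against 3.78%). The clamp loader subunit Rfc4 was called lower (-0.41, but -0.15 with the trends removed). Mki67, a marker of cycling cells, was at 6.39 to 14 FPKM in vehicle and 11.6 to 19.5 in relapse and was not called (0.71, limma adjusted p = 0.0703), and neither was Top2a, a target of doxorubicin (0.23, limma adjusted p = 0.272). Of 25 D cyclins, CDKs and CDK inhibitors, 0 were called by limma, and 5 were higher and 1 lower at an unadjusted p under 0.05, against 25.2% of all genes tested.

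Since the study concerns metabolism, its pathways were examined gene by gene. In de novo pyrimidine synthesis, Dhodh was at 14.3 to 19.7 FPKM in vehicle and 14.6 to 17.0 in relapse, and Umps at 46.9 to 55.5 and 49.2 to 54.6. Neither was called (limma adjusted p = 0.849 and 0.853), and nor was Cad, the enzyme of the first steps, whose 4 relapse values (33.5 to 37.5 FPKM) were all above the vehicle values (14.9 to 30.02; change 0.51, limma adjusted p = 0.0962, and 0.19 with the trends removed). Of 21 genes of the pathway 1 was called (against 5.65% of all genes tested), the UMP/CMP kinase Cmpk1, which also activates cytarabine, and it was lower (-0.39, limma adjusted p = 0.0382). With the trends removed the change of Cmpk1 was -0.15 (limma adjusted p = 0.194). In purine synthesis and salvage 3 of 24 genes were called, all lower (against 1.87% of all genes tested): the phosphorylase Pnp (-0.37), the salvage enzyme Hprt (-0.49) and the adenylosuccinate synthetase Adss (-0.45), with limma adjusted p = 0.0284, 0.0492 and 0.0403. With the trends removed the changes were -0.29 for Pnp, -0.14 for Hprt and -0.27 for Adss, with limma adjusted p = 0.0768, 0.322 and 0.127.

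In glutamine and aspartate metabolism 1 of 25 genes was called higher and 1 lower (against 3.78% and 1.87% of all genes tested). The higher gene was the glutamine transporter Slc38a1, at 23.3, 26.0, 31.8, 25.5 and 24.3 FPKM in vehicle and 35.3, 34.0, 36.0 and 34.7 in relapse (0.41, limma adjusted p = 0.0358, but 0.25 with the trends removed). The lower was asparagine synthetase, Asns, at 45.4 to 50.7 FPKM in vehicle and 37.2 to 42.1 in relapse (-0.28, limma adjusted p = 0.0484, but -0.17 with the trends removed). The transporter Slc1a5 (limma adjusted p = 0.359) and the transaminases Got1 (0.45) and Got2 (0.246) were not called. Glul, glutamine synthetase, was at 13.7 to 15.9 FPKM in vehicle and 16.1 to 19.3 in relapse, separate but not called (0.25, limma adjusted p = 0.112).

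In carbon metabolism 2 enzymes of gluconeogenesis and 1 of fatty acid oxidation were called higher. Fbp1, fructose-1,6-bisphosphatase (chromosome 13, 62864753 to 62888282), was at 8.46, 10.2, 3.43, 6.87 and 5.23 FPKM in vehicle and 15, 14.5, 13.2 and 13.4 in relapse, while the glucose transporter Slc2a1 was not called (0.24, limma adjusted p = 0.283). The change of Fbp1 was 1.01 as fitted and 1.07 with the trends removed (limma adjusted p = 0.0358 and 0.0585). Pcx, pyruvate carboxylase, was at 3.08 to 4.57 FPKM in vehicle and 5.0 to 7.61 in relapse (0.55, limma adjusted p = 0.0422, but 0.35 with the trends removed). Cpt1a, which admits fatty acids to the mitochondrion, was at 16.7, 15.7, 12.5, 14.2 and 12.9 FPKM in vehicle and 18.8, 36.9, 23.1 and 24.6 in relapse (0.77, limma adjusted p = 0.035). These were 2 of 33 genes of glucose metabolism and 1 of 29 of fatty acid metabolism, against 3.78% of all genes tested called higher. The medians of these lists were 0.02 and 0.03 (-0.02 and 0.07 with the trends removed).

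Some genes of the respiratory chain and the ribosome, most of them short, were called lower. Of 76 nuclear genes of the respiratory chain and ATP synthase 9 were called lower (against 1.87% of all genes tested) and 0 higher, with a median change of -0.12. With the trends removed limma called 0, at a median of -0.04 (3 lower and 1 higher at an unadjusted p under 0.05, against 2091 of all 10749 genes). Ndufa4, a small subunit of the chain, was at 665, 644, 642, 618 and 635 FPKM in vehicle and 504, 528, 522 and 467 in relapse. The groups were well apart (change -0.34, limma adjusted p = 0.0245), yet with the trends removed the change was -0.07 (limma adjusted p = 0.645). Cycs, cytochrome c, changed by -0.60 and by -0.40 with the trends removed (limma adjusted p = 0.0299 and 0.0591). Of 80 cytosolic ribosomal proteins 4 were called lower, among them Rpl9 and Rps27l, and of 76 mitochondrial ones 3, among them Mrpl15 (against 1.87% of all genes tested). The medians were -0.13 and -0.12, and -0.05 for both with the trends removed.

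Of 18 genes of cytarabine handling Cmpk1 was the 1 call (against 5.65% of all genes tested), at -0.39 as fitted and -0.15 with the trends removed. The activating kinase Dck was at 12.8 to 19.7 FPKM in vehicle and 13.5 to 16.7 in relapse (limma adjusted p = 0.781), and the ribonucleotide reductase subunit Rrm2 at 80.7 to 88.8 and 71.7 to 90.6 (0.444). Of 19 genes of doxorubicin targets, efflux and reduction the exporter Abcc1 was called higher (against 3.78% of all genes tested), at 10.7, 14, 13.8, 12.9 and 12.2 FPKM in vehicle and 17.8, 17.2, 18.4 and 15.4 in relapse (0.41, limma adjusted p = 0.041, and 0.22 with limma adjusted p = 0.211 with the trends removed). In another list, that of the pentose phosphate pathway, glutathione and redox, the glutathione transferase Mgst1 was the 1 call of 37 (against 5.65% of all genes tested), at 107 to 139 FPKM in vehicle and 73.5 to 89.8 in relapse. Its change was -0.56 as fitted and -0.35 with the trends removed (limma adjusted p = 0.0245 and 0.0921). The niche receptor Cxcr4 (-0.12, limma adjusted p = 0.432) and the survival gene Mcl1 (0.05, limma adjusted p = 0.766) were not called.

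**Figure D5:**
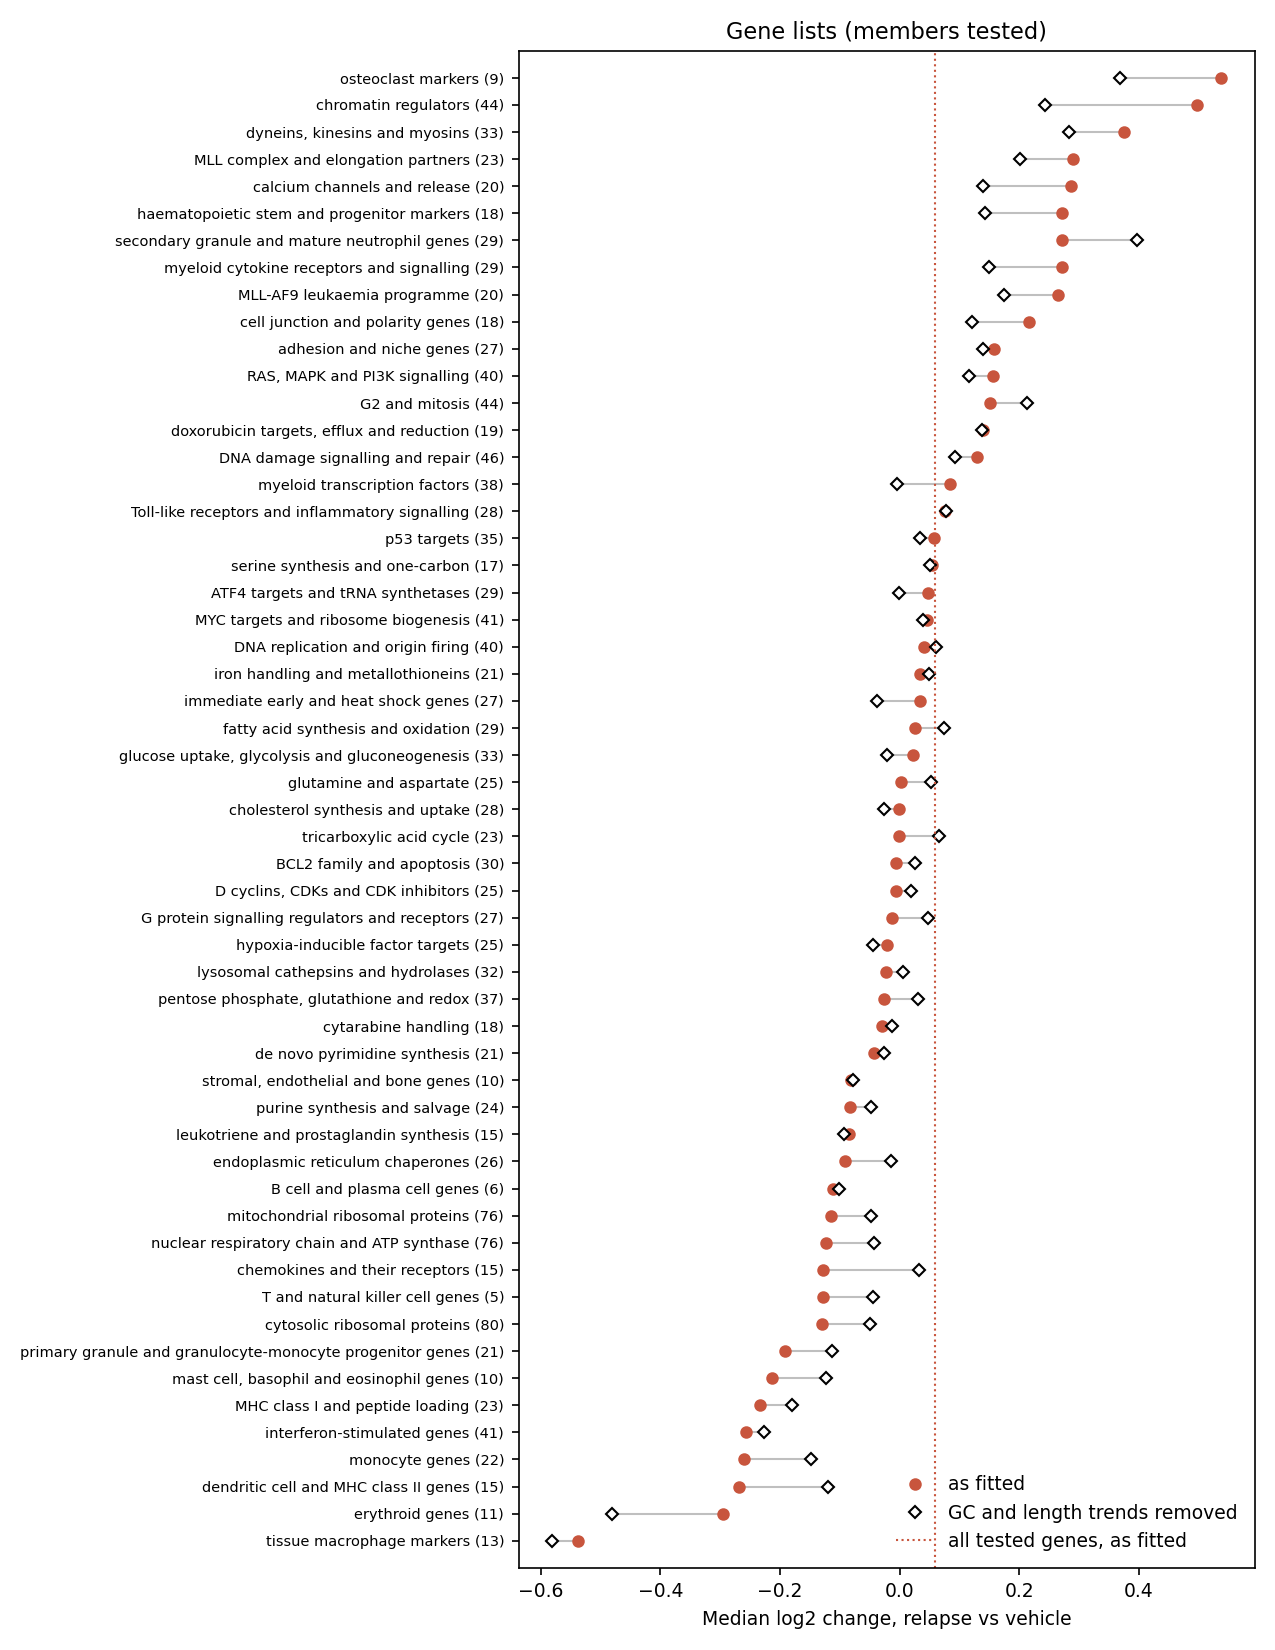
Median log2 change (relapse minus vehicle, x axis) of each gene list with at least 5 tested members, as fitted (filled) and with GC and length trends removed (open), with the number of tested members in brackets and the median of all tested genes as a dotted line. Chromatin regulators move from 0.50 to 0.24 and respiratory chain genes from -0.12 to -0.04, while interferon-stimulated genes stay at -0.26 and -0.23.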

How the data were processed

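Per the labels' protocols, total RNA was purified on RNeasy micro columns and NEB kits served for the libraries. The deposited tables hold FPKM values with intervals. The authors' tools were STAR and Cufflinks according to the submitters' processing notes, without versions. The notes name mm9, but of 22918 single-locus symbols 22769 (99.3%) overlap the RefSeq GRCm38 gene of that name, so coordinates are given as GRCm38. Nothing was stated about read length, strandedness, mapping of repeats or scaling.

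Groups were taken from the sample titles. FPKM divides a gene's fragments by its length and the library's total, so abundant genes move all others. Only about 45% to 50% of low values implied whole fragments (within 0.02), so no count test was run. Values were tested as log2(FPKM + 1) with limma 3.58.1 (R 4.3.3), with a trended prior variance and Benjamini-Hochberg adjustment over the 10834 genes that reached 1 FPKM in 3 or more of the 9 libraries. Intervals and depths cover counting error only. GC content and length came from the longest coding GENCODE vM21 transcript (99.2% of tested genes), and their trends were removed per library with smooth terms (mgcv 1.9.3). The procedure was tested on simulated data. The 56 gene lists hold 1721 symbols, of which 1712 were found and 1398 tested.

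Named genes were the 15 largest rises and 15 largest falls (called, groups separate, a group mean of at least 5 FPKM), up to 4 called members per list by smallest p (2 where none was called), and a fixed set of leukaemia and metabolic genes; some are not reported here. Other names were chosen after their values were seen, as were the repeat runs. The members of the comparison and all lists were chosen with earlier results of these data known. Alternatives were other pseudocounts, filters, scalings, weights and variance models, all 12 libraries, a block on mouse number, trend removal and the omission of each mouse.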

Additional observations from a re-analysis of the deposited data

Results flagged for a closer look

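Of the 248 groups of values behind the named genes, 19 held a library whose gap to the nearest other exceeded the 95% critical value of Dixon's test, where chance gives about 1 in 20. In vehicle mouse 1, Mpo was at 1915 FPKM (others 2923 to 3087), Hrk at 5.70 (1.79 to 2.80), Hoxc8 at 17.8 (7.32 to 10.2), Cxcl15 at 32.5 (10.2 to 14.3), C330011F03Rik at 37.1 (14.1 to 18.6), Pole at 7.15 (9.86 to 11), Rpl9 at 3111 (2523 to 2639), Got1 at 19.3 (23.2 to 24.8) and Inpp5d at 28.4 (37.4 to 41.0). This library was also the farthest out on the first principal component, and Hrk, Hoxc8 and Cxcl15 hold CA or TG runs of at least 50 bases.

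In vehicle mouse 3, the shallowest of the 9 libraries, Cd34 was at 122 FPKM (others 75.2 to 88.1), Gata2 at 3.12 (5.68 to 6.51) and Nfatc1 at 5.37 (6.81 to 7.34). In vehicle mouse 5, Mki67 was at 14 FPKM (6.39 to 8.51) and Mrpl15 at 30.2 (28.0 to 28.5). In relapse mouse 1, Phlda3 was at 6.93 FPKM (1.49 to 1.96). Single values that stood apart in the other relapse libraries were Rfc4 in mouse 2 (41.9 FPKM, others 34.9 to 36.1), Bcor in mouse 3 (19.1, others 16.1 to 16.5), Mdc1 in mouse 3 (8.10, others 9.58 to 9.80) and Dhodh in mouse 4 (14.6, others 16.7 to 17.0).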

How the results depend on the processing

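Every called gene named here kept its direction under every alternative run, but the calls were not kept, and some uncalled genes changed sign: of 2903 gene and setting pairs, 1026 lost the call and 10 gained one. The 612 calls became 160 of 16266 without a filter on low values, 958 with array weights, 1116 with precision weights, 0 with all 12 libraries and 11 with GC and length trends removed, and 0 to 590 when 1 mouse was left out. Pseudocounts, the stricter filter, both other scalings, the variance models and the omission of genes with repeat runs gave 432 to 730. The median of all genes was 0.06 as fitted and 0.00 after median-of-ratios scaling. The 11 calls with trends removed became 0 to 41 when 1 mouse was left out, among them 3 without vehicle mouse 3 and 17 without vehicle mouse 4 (an alternative added after the data were seen). The labels do not say that mouse numbers pair the libraries. The few correlations of same-numbered mice (-0.053 to 0.042, against -0.128 to 0.174 for other pairs) cannot settle it. A block on mouse number left 1 call, and 1 also with the trends removed. The slopes on GC content and length kept their sign throughout.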
